A study of Mus musculus with 46 samples.

Results

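The guanylate-binding proteins are a family of large GTPases that cells make in quantity when interferon, above all IFNγ from T cells and NK cells, engages its receptor. They gather on the membranes of bacteria and of vacuoles that hold parasites, and several of them feed into the inflammasome, the complex that activates caspase-1. In tumors they are read as a trace of IFNγ signaling. The 10 protein-coding genes described here (Gbp2, Gbp2b, Gbp3, Gbp4, Gbp5, Gbp6, Gbp7, Gbp8, Gbp9 and Gbp10) were taken by the names that GENCODE M21 gives to the Ensembl identifiers of a table of 48795 genes, which also lists Gbp11 and the pseudogene Gbp2-ps, and all 10 were above 0 in at least 1 sample. The levels are FPKM, a fragment count corrected for how long the transcript is and how many fragments its library had.

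The 46 samples were bulk RNA from MC-38, a mouse colon carcinoma line, either in culture (3 samples) or grown subcutaneously in the flank. The hosts of the antibody study were female C57BL/6NTac WT mice of 8 to 10 weeks. They gave tumors taken at day 11 after 1 dose or at day 15 after 2 doses, with 5 tumors in each of the 4 groups. The doses were isotype control or the PD-1 Ab muDX400 at 5 mg/kg. The labels of 3 baseline tumors name no host, day or study. The methods give the mice as female and of 8 to 10 weeks. The hosts of the second study were also female and of 8 to 10 weeks. It compared 10 tumors labelled PD-1cKO, grown in ROSA26creERT2 Pdcd1 fl/fl mice, with 10 tumors from littermate WT mice, and both sides of that comparison received tamoxifen at 40 mg/kg on 5 consecutive days. The labels place these 20 tumors at day 28 and the methods at day 22 post-tumor implant. The inducible Cre is expressed from the broadly active Rosa26 locus, so the deletion is not limited to T cells and would also reach other host cells but not the implanted MC-38 cells. Only exons 2 and 3 of Pdcd1 are flanked by loxP sites. Pdcd1 over the whole gene read 5.05 to 19.9 FPKM in tumors labelled PD-1cKO and 1.71 to 7.02 FPKM in WT tumors, which does not check the deletion, and the group is therefore called by its label. Nothing in the labels says that 2 tumors came from 1 mouse, and p-values judge differences and relations against the spread between these samples. In bulk tissue, fewer cells of a type and less RNA per cell cannot be told apart.

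The samples of both studies differed in make-up. Short noncoding RNAs held 31.1% to 66.5% of the FPKM in tumors labelled PD-1cKO and 30.2% to 54.6% in WT tumors, but at most 0.0817% elsewhere. In isotype control replicate 1 of day 11 mitochondrial genes held 54.6% of the FPKM. The sample identifiers of the tamoxifen study fall into 3 runs, the first with 7 tumors labelled PD-1cKO and none from WT mice, the second with 1 and 9, and the third with 2 and 1. The labels do not call these runs batches. The first run holds 1 group alone and the others few tumors of a group, so the only estimate of the group difference within runs is the fit with runs as a covariate, given with the PD-1cKO results. In the day 11 comparison the identifiers of isotype control replicates 1, 2 and 3 lie apart from those of all other tumors. The fit with runs as a covariate is given there too.

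The genes form 2 clusters (GENCODE M21, GRCm38). Gbp5, Gbp7, Gbp3, Gbp2b and Gbp2 lie in this order on the plus strand of chromosome 3, from 142493978 to 142638008. Gbp8, Gbp9, Gbp4, Gbp10 and Gbp6 lie on the minus strand of chromosome 5, from 105014150 to 105293698. Gbp8, Gbp9 and Gbp4 begin at nearly the same base (105139540, 105139539 and 105139586), and reads of the exon bases they share there cannot be assigned to 1 of them. The paralogs differ in how well short reads separate them. Of the 50-base stretches of its transcripts, Gbp10 shares 84.1% with other genes and Gbp6 shares 70.7%, mainly with each other and with the unnamed gene model Gm43302. The share is 18.1% for Gbp8, 12.7% for Gbp7, 8.05% for Gbp9 and 7.7% for Gbp4, and at most 3.75% for the others, so that values of Gbp6 and Gbp10 are uncertain as values of 1 gene.

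Promoters were read from RefSeq (GRCm38.p6) for the 5 genes of the chromosome 3 cluster, and Gbp4, Gbp6, Gbp8, Gbp9 and Gbp10 did not have an entry. They are shown because interferons act on this family through promoter motifs known as the GAS and the ISRE. The motifs searched on both strands were the ISRE core GAAANNGAA and the GAS core TTCNNNGAA. Each window runs from 250 bases before to 50 bases after the annotated start, on the plus strand, and capitals mark every match (an ISRE core on the opposite strand reads as its reverse complement).
Gbp2, chr3:142620413-142620712: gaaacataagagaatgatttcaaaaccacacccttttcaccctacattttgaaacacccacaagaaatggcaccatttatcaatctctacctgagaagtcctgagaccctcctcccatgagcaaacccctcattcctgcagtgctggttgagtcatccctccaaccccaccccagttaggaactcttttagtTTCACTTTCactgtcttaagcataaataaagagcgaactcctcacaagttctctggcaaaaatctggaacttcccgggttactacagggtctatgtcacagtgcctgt
Gbp2b, chr3:142594597-142594896: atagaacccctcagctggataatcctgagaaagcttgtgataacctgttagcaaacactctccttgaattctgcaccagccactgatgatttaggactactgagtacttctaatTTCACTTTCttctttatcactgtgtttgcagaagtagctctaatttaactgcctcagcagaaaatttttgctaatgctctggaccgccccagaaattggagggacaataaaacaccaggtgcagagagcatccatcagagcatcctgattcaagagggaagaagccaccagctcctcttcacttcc
Gbp3, chr3:142559794-142560093: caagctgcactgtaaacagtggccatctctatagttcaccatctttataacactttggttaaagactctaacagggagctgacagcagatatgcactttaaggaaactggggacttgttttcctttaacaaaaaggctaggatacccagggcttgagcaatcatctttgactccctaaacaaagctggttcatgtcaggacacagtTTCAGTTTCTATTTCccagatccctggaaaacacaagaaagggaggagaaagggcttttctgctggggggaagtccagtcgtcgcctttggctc
Gbp5, chr3:142496684-142496983: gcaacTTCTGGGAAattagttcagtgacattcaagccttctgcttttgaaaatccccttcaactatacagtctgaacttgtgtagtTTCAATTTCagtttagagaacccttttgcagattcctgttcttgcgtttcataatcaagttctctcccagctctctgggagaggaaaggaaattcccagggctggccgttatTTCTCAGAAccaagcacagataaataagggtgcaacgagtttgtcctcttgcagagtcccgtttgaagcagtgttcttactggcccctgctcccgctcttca
Gbp7, chr3:142530086-142530385: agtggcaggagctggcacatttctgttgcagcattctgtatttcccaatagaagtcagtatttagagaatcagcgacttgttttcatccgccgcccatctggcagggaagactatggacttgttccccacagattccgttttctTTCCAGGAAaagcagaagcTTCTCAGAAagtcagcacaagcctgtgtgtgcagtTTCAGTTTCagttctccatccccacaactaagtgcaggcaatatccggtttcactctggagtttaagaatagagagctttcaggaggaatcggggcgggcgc
The ISRE core occurred in all 5 windows, and in 8.56% of all 32851 promoter windows of the same length. It began 58 bases before the start in Gbp2, 136 in Gbp2b, 164 in Gbp5 and 52 in Gbp7, and in Gbp3 a pair of overlapping matches began 44 and 38 bases before. A second annotated start of Gbp3, not shown, held neither motif. The GAS core occurred in Gbp5 (245 and 52 bases before the start) and in Gbp7 (106 and 87), and in 8.3% of all windows. Both motifs together occurred in 1.07% of windows, and none of the matches of one motif overlapped the other. A match of these letters is a description of the window and does not show that a factor binds there.

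**Figure D1:**
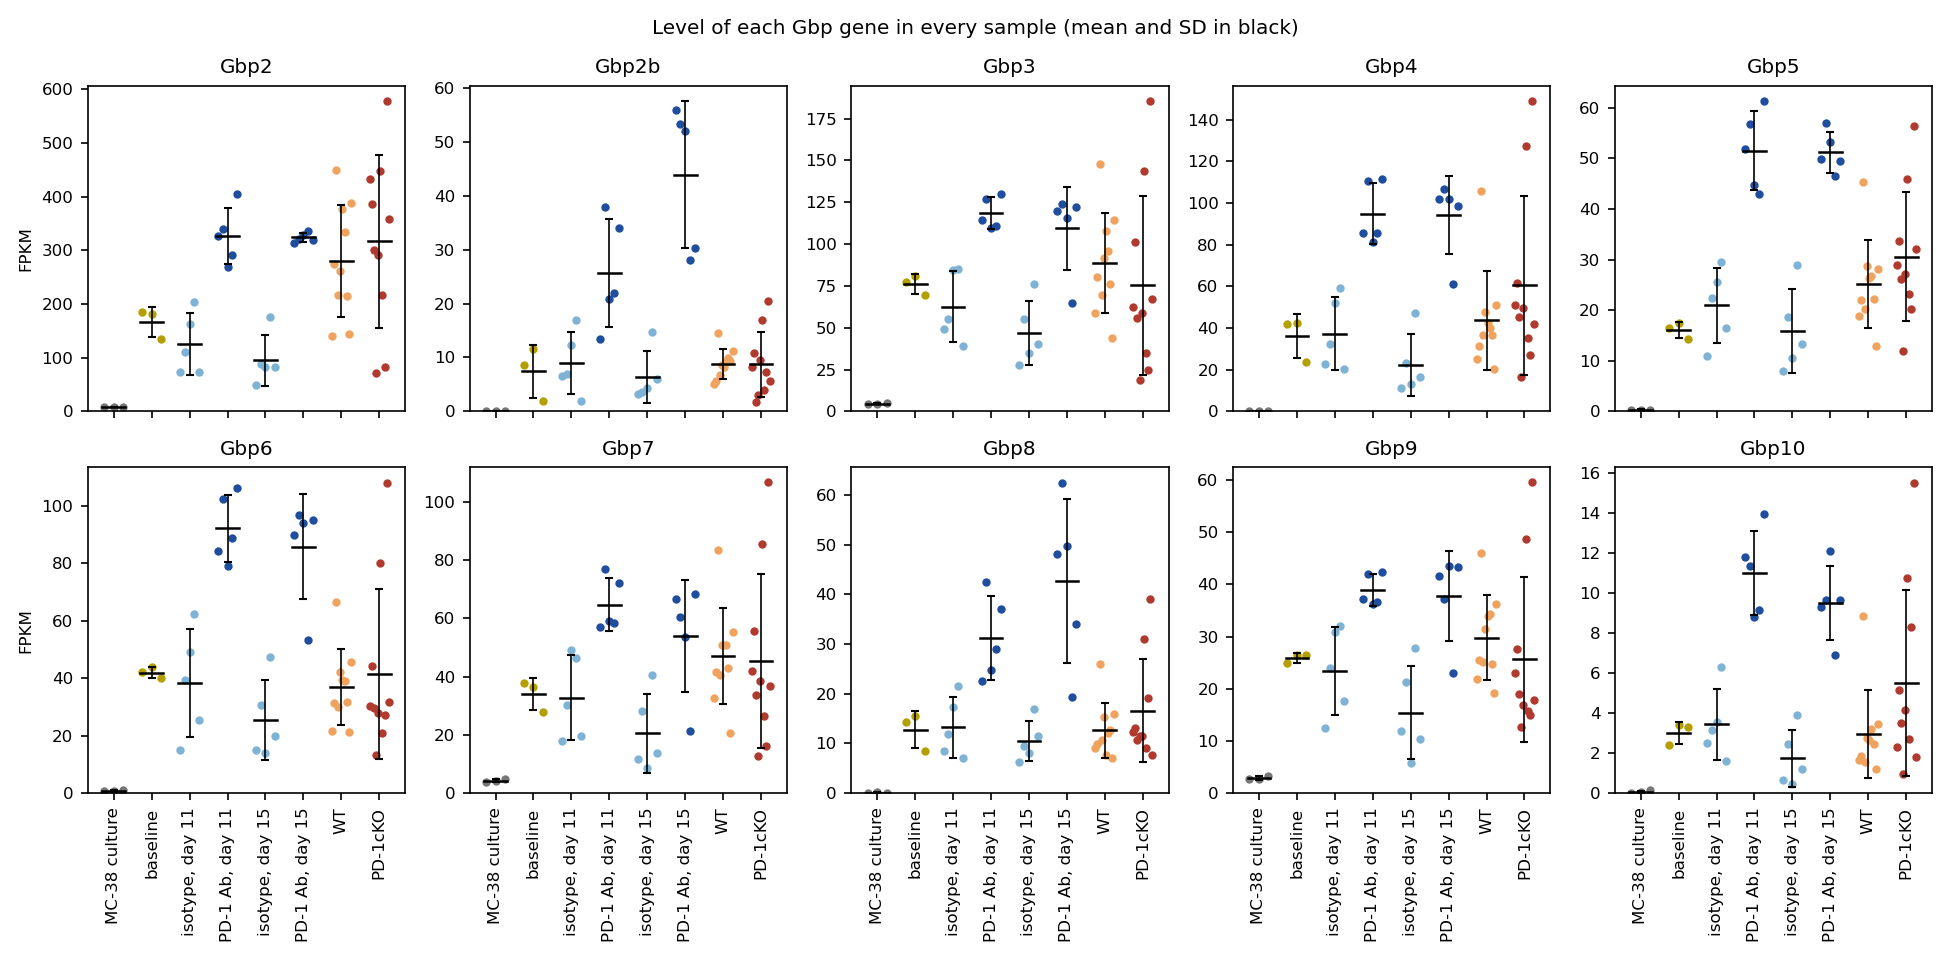
Level of each gene in FPKM (vertical axis, linear, its own scale in each panel) in every sample of the 8 groups (horizontal axis); points are samples, black lines the mean and SD. Every tumor given PD-1 Ab was above every isotype control tumor in 9 of 10 genes at day 11 and in 7 of 10 at day 15. This held for 3.59% of all genes tested at day 11 and for 9.23% at day 15. The range of tumors labelled PD-1cKO reached above that of WT tumors in each panel, and below it in each but that of Gbp8.

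MC-38 cells in culture held little RNA of the family. Gbp2 was the highest at 8.01, 7.83 and 8.17 FPKM, followed by Gbp3 (4.37 to 4.81), Gbp7 (3.87 to 4.73) and Gbp9 (2.68 to 3.26). Gbp4, Gbp5, Gbp6, Gbp8 and Gbp10 were each under 1 FPKM in every culture, and Gbp2b was listed at 0 in all 3. Summed over the family, the cultures held 21.3 ± 1.17 FPKM (SD, n = 3). Baseline tumors held 420 ± 60.6 FPKM (SD, n = 3) and isotype control tumors of day 15 held 261 ± 132 FPKM (SD, n = 5).

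All 10 genes were called higher in isotype control tumors of day 15 than in cultured cells, where 14.2% of all 15199 genes tested were. A gene was called at a limma adjusted p under 0.01 and an at least 2-fold change of log2(FPKM + 0.1). Gbp8 had a log2 fold change of 5.76 (standard error 0.29, adjusted p 2.93e-07), and Gbp4 one of 5.59 (standard error 0.42, adjusted p 4.6e-06). The smallest were Gbp7 with 2.01 (standard error 0.46, adjusted p 0.00549) and Gbp9 with 2.17 (standard error 0.44, adjusted p 0.00304). The cultures held about as little Gbp8 as the 0.1 FPKM that was added (0.076 to 0.0989), and with 1 FPKM added its value was 3.33, that of Gbp4 was 3.97, and Gbp10 was no longer called (adjusted p 0.0175). No fold is given for Gbp2b, for which the cultures were listed at 0. The 5 T cell markers Cd3e, Cd3g, Cd8a, Cd8b1 and Cd4 summed to at most 0.0228 FPKM in culture and to 6.34 to 16 FPKM in these tumors, and macrophage and monocyte markers to at most 3.14 against 123 to 155 FPKM. Ifng was listed at 0 in every culture.

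None of the 10 genes was called between baseline tumors and isotype controls of day 15, where 0.428% of 14967 genes were called higher at baseline. The log2 fold changes ran from 0.14 for Gbp2b to 1.13 for Gbp10, all above 0, as in 58.2% of all genes. Their limma adjusted p lay between 0.184 and 0.928, and 3 of them had an unadjusted p under 0.05, as 17.7% of all genes did. With 3 tumors against 5, the 95% interval of Gbp2 (0.18 to 1.64) did not reach 0 while that of Gbp2b (-1.24 to 1.52) was wide.

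After 2 doses of PD-1 Ab most of the family was higher. At day 15, 8 of 10 genes were called higher than in isotype control tumors, against 5.03% of all 15062 genes tested, and no gene of the family was lower. The fold changes lay between 2.42 for Gbp3 and 7.75 for Gbp2b. Gbp7 and Gbp9 had log2 fold changes above 1 but missed the adjusted p. In 7 of 10 genes every antibody-treated tumor was above every isotype control tumor, which held for 9.23% of all genes.

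**Figure D2:**
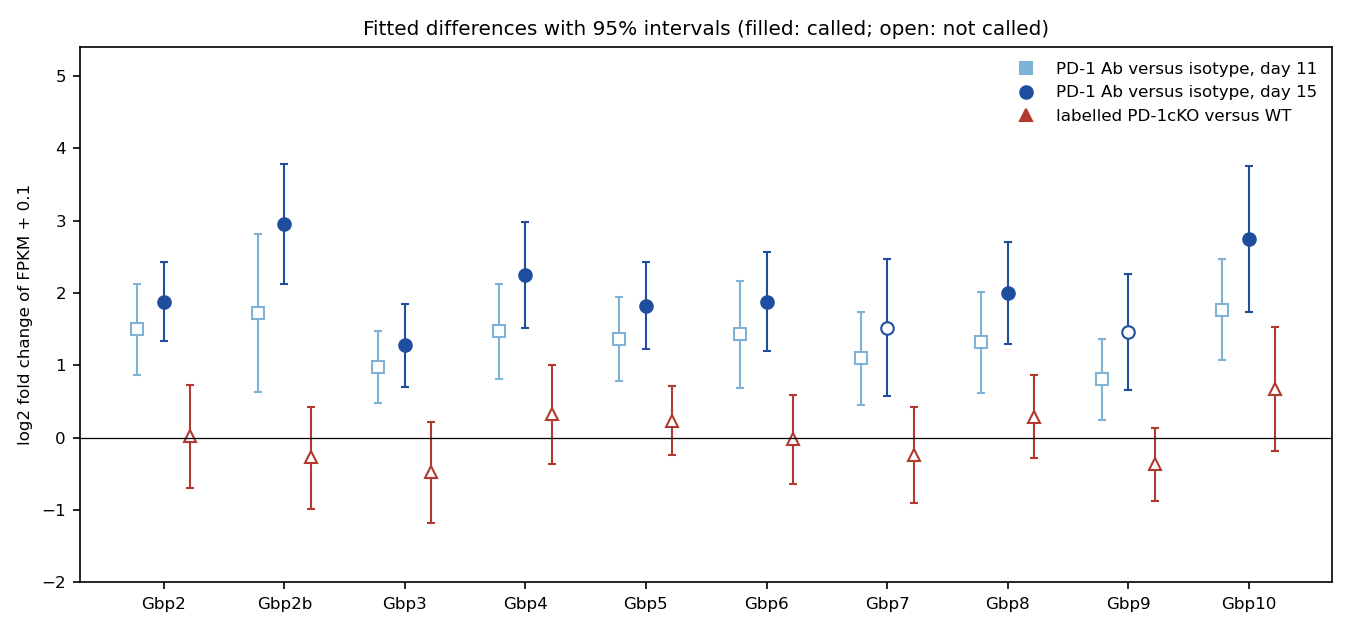
Log2 fold change of FPKM + 0.1 (vertical axis) for each gene (horizontal axis) in the comparisons of day 11, day 15 and the PD-1cKO label, with 95% intervals of the limma fit; filled symbols were called and open ones were not. The 10 antibody differences of day 15 lie between 1.28 and 2.95, and those of the PD-1cKO label between -0.48 and 0.67.

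Gbp2, Gbp2b and Gbp5 are the members whose proteins carry a lipid anchor at their C terminus and can insert into membranes. Gbp2 had the highest level of the family in every tumor group. It read 314, 322, 329, 337 and 320 FPKM in the 5 antibody-treated tumors of day 15 and 49.9, 88.4, 82, 176 and 82.3 FPKM in the isotype controls. The groups did not overlap, and the treated tumors lay within a narrow band (SD 8.75 FPKM, against 47.4 in controls). The log2 fold change was 1.88 (standard error 0.25, adjusted p 0.00101 in limma).

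Gbp2b, the neighbor of Gbp2, was lower in level but had the largest difference of the family. It read 55.9, 53.2, 52, 28 and 30.2 FPKM after 2 doses and 3.2, 3.52, 4.31, 14.8 and 5.94 FPKM in isotype controls. Treated replicates 4 and 5 were lower than the other 3, and control replicate 4 was higher than the other controls, yet the groups did not overlap. The log2 fold change was 2.95 (standard error 0.38, adjusted p 0.000969 in limma).

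Gbp5, which promotes assembly of the NLRP3 inflammasome, read 49.8, 57, 53.3, 46.5 and 49.4 FPKM against 7.96, 18.7, 10.5, 28.9 and 13.4 FPKM. All treated tumors were above all controls, by a log2 fold change of 1.82 (standard error 0.28, adjusted p 0.00165 in limma). The remaining genes of the chromosome 3 cluster overlapped between groups. Gbp3 read 120, 124, 116, 65.1 and 122 FPKM against 27.5, 55.1, 35.1, 76.2 and 40.2 (log2 fold change 1.28, standard error 0.26, adjusted p 0.00696 in limma). The call of Gbp3 was made in 8 of 19 other settings (limma adjusted p up to 0.0287), the fewest among the called genes. Gbp7 read 66.8, 60.3, 53.5, 21.3 and 68.4 FPKM against 11.5, 28.3, 8.55, 40.7 and 13.8 (1.52, standard error 0.44, adjusted p 0.0271 in limma, not called). In both genes treated replicate 4 was the low tumor and control replicate 4 the high one, and 4 of 5 treated tumors were above every control.

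In the chromosome 5 cluster, Gbp4 and Gbp10 had the largest differences. Gbp4 read 102, 107, 102, 61 and 98.4 FPKM after 2 doses and 11.1, 23.4, 13.2, 47.3 and 16.5 FPKM in controls (log2 fold change 2.25, standard error 0.33, adjusted p 0.00148 in limma). Gbp10, the lowest of the family in level, read 9.29, 9.63, 12.1, 6.88 and 9.67 against 0.664, 2.44, 0.446, 3.88 and 1.19 (2.75, standard error 0.46, adjusted p 0.00258 in limma). Neither gene overlapped between groups. Gbp6 (log2 fold change 1.88, standard error 0.31) and Gbp8 (2.0, standard error 0.32) were called without overlap too, with limma adjusted p of 0.00237 and 0.00209. Because Gbp6 and Gbp10 share most of their sequence, both were also summed with Gm43302, a choice made after seeing the data, and the sum gave 1.96 (limma adjusted p 0.00237). Gbp9 read 41.6, 37.2, 43.5, 23.1 and 43.4 FPKM against 11.9, 21.3, 5.69, 27.8 and 10.4, and replicate 4 was again the low treated and the high control tumor. Its log2 fold change of 1.46 (standard error 0.37, adjusted p 0.016 in limma) was not called.

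Treated replicate 4 was the lowest of its group in 9 of the 10 genes and the highest in Gbp2. Its T cell markers summed to 92.3 FPKM, the median of the group, against 31.9 FPKM in replicate 5, and its Ifng of 7.1 FPKM was the median too. Among controls, replicate 4 was the highest in all 10 genes and also in Ifng (2.4 FPKM against 0.554 to 1.75 in the others). Without control replicate 4 the count of called genes was 9, and without treated replicate 4 it was 8. The count ran from 6 to 9 when 1 tumor was left out.

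After 1 dose, at day 11, the family stood higher in the same direction but no gene was called. In this comparison 0 of 14556 genes were called higher (0.0%). All 10 genes of the family had an unadjusted limma p under 0.05 in the higher direction (at most 0.00854), as 5.83% of all genes did, with adjusted p between 0.135 and 0.490. The log2 fold changes ran from 0.81 for Gbp9 to 1.77 for Gbp10. In 9 of 10 genes every treated tumor was above every control, against 3.59% of all genes.

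At this day Gbp2 read 327, 340, 269, 292 and 405 FPKM in treated and 72.7, 110, 164, 204 and 73.8 FPKM in control tumors (log2 fold change 1.5, standard error 0.29, adjusted p 0.157 in limma). Gbp10 read 11.8, 11.4, 8.81, 9.15 and 13.9 against 2.5, 3.17, 3.57, 6.29 and 1.6 FPKM (1.77, standard error 0.32, adjusted p 0.135 in limma). Both sets of tumors were apart. Gbp2b was the gene with an overlap, since treated replicate 1 at 13.5 FPKM lay under control replicate 4 at 16.9. The other treated tumors read 37.9, 20.8, 21.9 and 34 FPKM and the other controls 6.65, 6.94, 12.4 and 1.97 (1.72, standard error 0.5, adjusted p 0.412 in limma). Control tumors spread widely, from 20.2 to 59.1 FPKM in Gbp4 and from 14.9 to 62.3 in Gbp6, with replicates 3 and 4 as the 2 highest in all 10 genes and replicates 1 and 5 as the 2 lowest in all 10.

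All genes together were shifted by a median of 0.26 at day 11, and by 0.02 after median-of-ratios scaling. After that scaling the family still ran from 0.56 to 1.52, with limma adjusted p from 0.0407 to 0.373. Without control replicate 1, which was rich in mitochondrial RNA, the log2 fold changes were 0.61 to 1.7 with adjusted p from 0.0145 to 0.151, and again no gene of the family was called. With the runs of identifiers as a covariate the log2 fold changes were 0.7 to 2.02, and no gene of the family was called.

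Means at day 11 and day 15 were close for most genes after antibody. The sample identifiers of the 2 days form separate blocks, and the labels do not say whether these were batches. Day and block cannot be told apart. Gbp2 averaged 327 ± 52.1 and 324 ± 8.75 FPKM (SD, n = 5 each), Gbp5 51.5 ± 7.83 and 51.2 ± 4.04, and Gbp4 95 ± 14.8 and 94.1 ± 18.7. Gbp2b averaged 25.6 ± 10.1 and 43.9 ± 13.6 FPKM. The control tumors were lower at day 15 in all 10 genes, for Gbp2 at 95.8 ± 47.4 against 125 ± 57.8 FPKM. The difference between the effects of the 2 days was above 0 in all 10 genes (log2 0.29 to 1.23), as in 27.1% of all genes. It was not called in any of them, nor in any of 15289 genes as higher (0.0%). Limma adjusted p ran from 0.625 to 0.739, with no unadjusted p under 0.05, which 7.73% of all genes had. For Gbp2b, with the largest difference of 1.23, the standard error was 0.66.

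**Figure D3:**
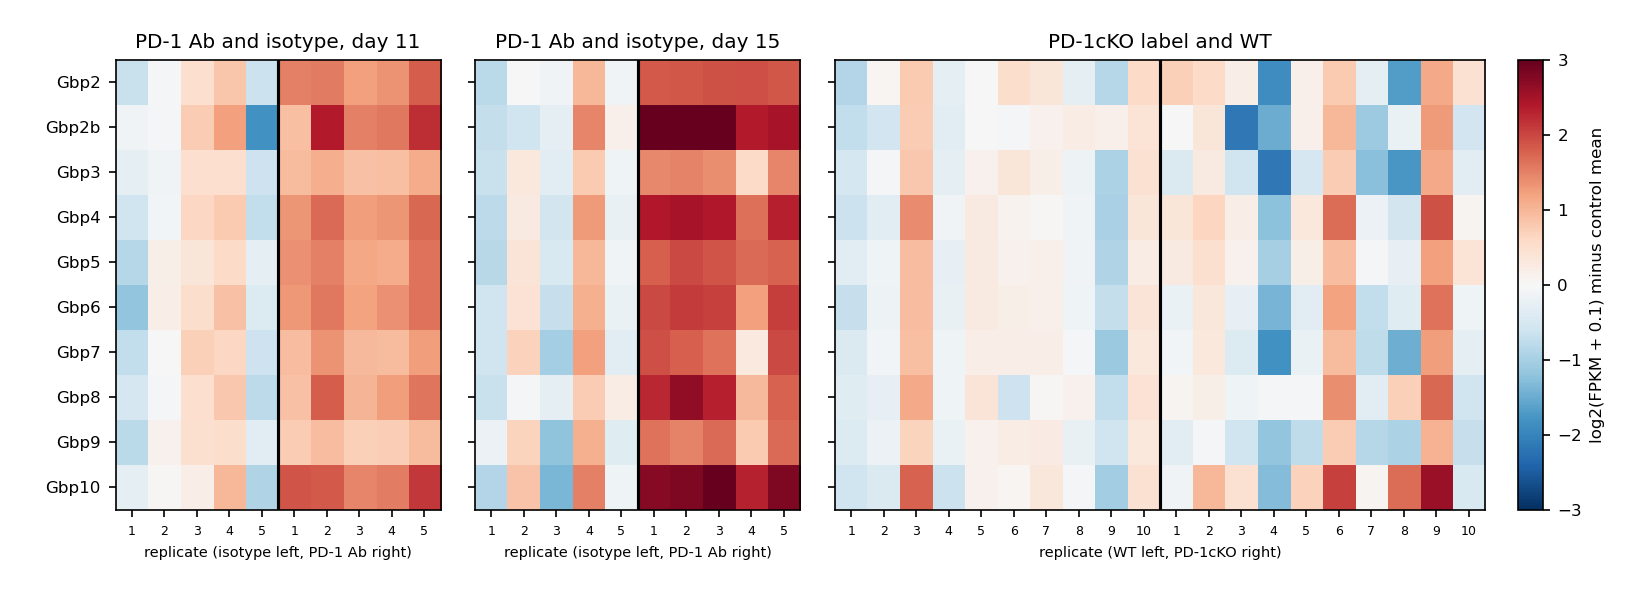
Every tumor of the 3 comparisons (columns, numbered by replicate; controls left and treated or PD-1cKO-labelled tumors right of the black line) and every gene (rows), coloured by log2(FPKM + 0.1) minus the mean of the control group. The antibody columns are mostly red at both days, while in the right panel columns 6 and 9 are red and columns 4 and 8 largely blue among tumors labelled PD-1cKO.

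Under the PD-1cKO label none of the 10 genes was called by limma in either direction, where 8.07% of 15075 genes were called in either direction and 4.2% were called higher. None of the 10 had an unadjusted p under 0.05, which 52.9% of all genes had. The log2 fold changes ran from -0.48 for Gbp3 to 0.67 for Gbp10, 5 above and 5 below 0, with limma adjusted p from 0.189 to 0.965. The median of the 10 was 0.0 and the median of all genes was -0.2, or -0.05 after median-of-ratios scaling, which moved the family to between -0.32 and 0.82. In no gene did the groups separate, as they did with every tumor above every control in 0.643% of all genes.

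Gbp2 ran from 71.8 to 578 FPKM (median 330) in tumors labelled PD-1cKO and from 142 to 449 FPKM (median 268) in WT tumors. A single tumor stood above and 2 below the range of the WT tumors, and the log2 fold change was 0.02 with a 95% interval of -0.69 to 0.73 (limma adjusted p 0.965). Gbp2b ran from 1.82 to 20.5 FPKM (median 7.82) against 5.04 to 14.4 (median 8.87). Here 2 tumors were above and 3 below the WT range, and the 95% interval of the log2 fold change was -0.98 to 0.43. Gbp5 ran from 11.9 to 56.5 FPKM (median 28) against 12.8 to 45.4 (median 24.3), a log2 fold change of 0.23 with an interval of -0.24 to 0.71.

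Gbp3 ran from 18.9 to 185 FPKM (median 60.8) against 43.8 to 148 (median 86.1), and Gbp9 from 12.7 to 59.6 (median 18.4) against 19.1 to 46.1 (median 28.4). They had the lowest log2 fold changes, -0.48 (interval -1.18 to 0.22) and -0.36 (-0.87 to 0.14), and for Gbp9 6 tumors lay under every WT tumor while 2 lay above. Gbp10 ran from 0.956 to 15.5 FPKM (median 3.81) against 1.18 to 8.83 (median 2.54), with a log2 fold change of 0.67 (interval -0.19 to 1.53). Gbp4, Gbp6, Gbp7 and Gbp8 had values of 0.33, -0.02, -0.24 and 0.29, and for each of them 2 tumors lay above every WT tumor. The upper ends of all 10 intervals lay between 0.14 and 1.53.

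The tumors labelled PD-1cKO were also more spread out. The SD of log2(FPKM + 0.1) was wider under the PD-1cKO label than in WT tumors in 10 of 10 genes, for Gbp2 1.02 against 0.58 and for Gbp2b 1.07 against 0.45. The spread was not tested, and the share of all genes with a wider SD under the label was not computed. The 10 genes moved together, so they are not 10 separate observations. Replicate 9 was the highest tumor in all 10 genes and replicate 6 among the 2 highest in all 10. Replicate 4 was the lowest in 8. Among WT tumors replicate 3 was the highest in all 10 genes.

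These tumors also differed in other measures. Short noncoding RNAs held 31.1% of the FPKM in PD-1cKO replicate 9 and 43.8% in replicate 6, but 64% in replicate 4 and 66.5% in replicate 8. As a share of protein-coding FPKM the family made up 0.385% and 0.318% in the former pair and 0.0592% and 0.0907% in the latter, against 0.0805% to 0.285% in WT tumors. The T cell markers did not follow this order. They were highest in replicates 4 and 8, at 68 and 88 FPKM. Replicates 6 and 9, at 45.5 and 45.4, were above the group median of 41. The lowest were replicates 3, 2 and 10, at 20.3, 25.3 and 25.9. The part of these measures in the levels of the family was not tested. Without the 3 tumors over 60% short noncoding RNA (replicates 4, 5 and 8), a choice made after seeing the data, the log2 fold changes were -0.17 to 0.8 and again no gene was called. With the runs of identifiers as a covariate they were -0.99 to 1.26 with no gene called, and Gbp2 was at -0.83.

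The antibody and the PD-1cKO label can be set against each other only through their own controls, since the hosts, the days and the libraries differed. The effect of PD-1 Ab at day 15 minus that of the PD-1cKO label was above 0 in all 10 genes, as in 70% of all genes. It lay between 1.59 for Gbp5 and 3.23 for Gbp2b on the log2 scale. Only Gbp2b was called (standard error 0.58, adjusted p 0.00674 in limma), where 0.0792% of 16404 genes were called higher. The others had adjusted p between 0.0529 for Gbp9 and 0.171 for Gbp10, and unadjusted p of at most 0.00623, while 15.8% of all genes had one under 0.05. The 95% interval of the difference was 0.76 to 2.96 for Gbp2 and 0.78 to 2.4 for Gbp5, so for these genes it lay above 0 before adjustment. The call of Gbp2b was made in 23 of 41 other settings, with adjusted p from 0.00108 to 0.138, and it was lost with all groups in 1 fit, with the replicate block, with the runs of identifiers as a covariate and without the 3 tumors rich in short noncoding RNA. It was also lost (limma adjusted p up to 0.0288) without isotype control replicate 1, 2, 3 or 5, PD-1 Ab replicate 1, 2 or 3, PD-1cKO replicate 7 or 10, or WT replicate 3, 5, 7, 8 or 10, each left out alone. The median of this difference over all genes was 0.23, and 0.03 after median-of-ratios scaling, when Gbp2b was still called (3.01, limma adjusted p 0.00843).

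**Figure D4:**
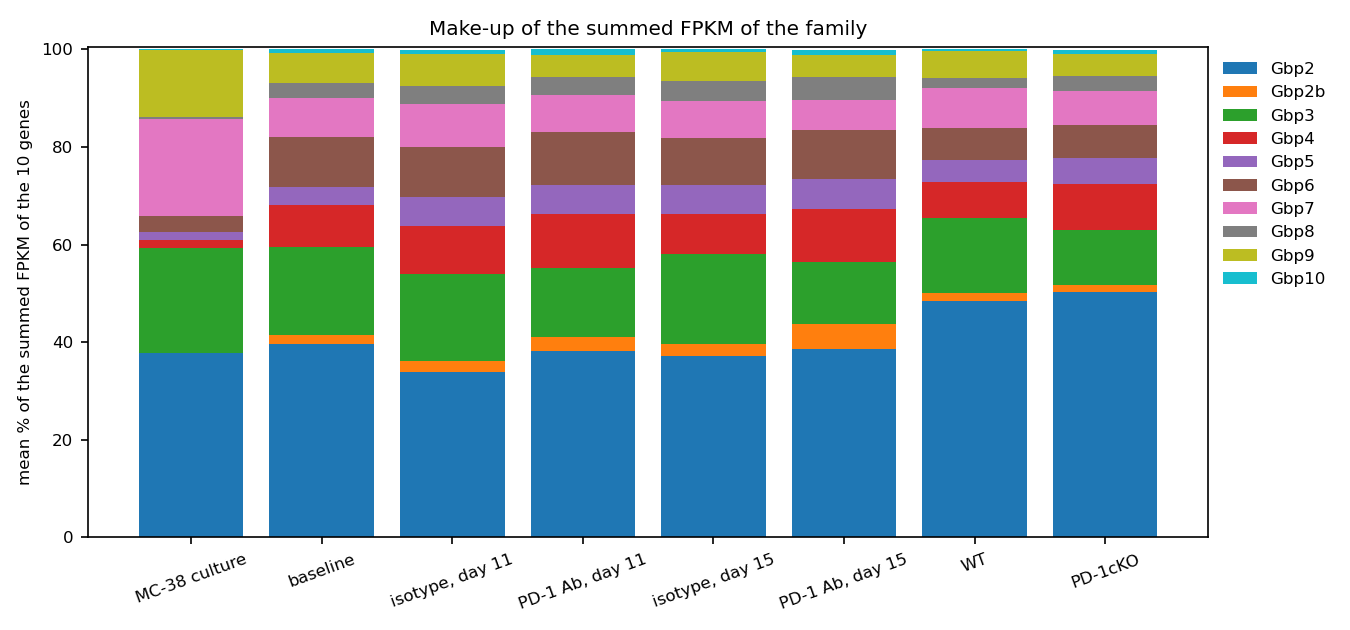
Mean share of each gene in the summed FPKM of the 10 genes (vertical axis, percent) in the 8 groups (horizontal axis). Gbp2 makes up 33.8% to 50.3% in every group, the band of Gbp2b is widest after 2 antibody doses at 5.08%, and the band of Gbp3 is thinnest under the PD-1cKO label at 11.3%.

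The summed level put the groups in an order. It averaged 855 ± 120 FPKM in PD-1 Ab-treated tumors at day 11 and 853 ± 109 at day 15 (SD, n = 5 each), then 626 ± 348 under the PD-1cKO label and 576 ± 207 in WT tumors (n = 10 each), 420 ± 60.6 at baseline, 366 ± 156 and 261 ± 132 in isotype controls of day 11 and day 15, and 21.3 ± 1.17 in culture. Neighbors in this order differed by less than the larger of their SDs, except the isotype controls of day 15 and the cultures. The values of the tamoxifen study come from libraries of another make-up. As a share of protein-coding FPKM the means were 0.209% and 0.197% after antibody, 0.189% under the PD-1cKO label, 0.162% in WT tumors and 0.0945% at baseline, against 0.103% and 0.0591% in isotype controls.

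Within that sum the genes did not keep fixed proportions. Gbp3 took a smaller share in all 3 comparisons, with no overlap in any. At day 15 its share was 9.84% to 14% after antibody and 15.9% to 19.6% in isotype controls, and at day 11 12.8% to 15% and 15.1% to 22.6%. Under the PD-1cKO label, where the sum itself did not separate the groups, it was 9.01% to 14.1% against 14.6% to 17.5% in WT tumors. The same separation held with Gbp6 and Gbp10 left out of the sum. The share of Gbp2b was 3.47% to 6.23% after 2 doses against 1.25% to 3.09%, without overlap, while at day 11 and under the PD-1cKO label its ranges overlapped. Other genes separated too. Gbp10 took a larger share at day 15 (1.04% to 1.33% against 0.245% to 0.866%) and at day 11 (1.18% to 1.46% against 0.719% to 1.15%). At day 11 Gbp9 (4.18% to 4.94% against 5.68% to 7.93%) and Gbp7 took smaller ones. Gbp7 overlapped with Gbp6 and Gbp10 left out. Shares add up to 100%, so a lower share of a gene is not a lower level, and no test was run on them.

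Gbp2 and Gbp2b lie side by side on chromosome 3, and their levels were set against each other in every tumor. The level of Gbp2 was a median of 6.33 times that of Gbp2b after 2 antibody doses (5.62 to 12 over 5 tumors) and 15.6 times in isotype controls (11.9 to 25.1). After 1 dose it was 12.9 times (8.97 to 24.2) against 13.2 times (10.9 to 37.6). In tumors labelled PD-1cKO it was 33.2 times (11.2 to 165) and in WT tumors 31.7 times (15.5 to 49). The ratio overlapped in each comparison, at day 15 only between the highest treated tumor at 12 and the lowest control at 11.9.

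The inducer of the family was itself measured. Ifng averaged 8.23 FPKM after 2 doses of antibody and 1.42 in isotype controls (log2 fold change 2.52, standard error 0.34, adjusted p 0.00106 in limma), and at day 11 5.04 and 1.11 FPKM (2.44, standard error 0.55, adjusted p 0.236). It averaged 2.29 FPKM under the PD-1cKO label and 1.14 in WT tumors, with a log2 fold change of 1.02 (standard error 0.27, adjusted p 0.00692 in limma), so it was called higher there while none of the 10 genes was. This call lay close to the 2-fold threshold, and 2 of the tumors labelled PD-1cKO were above every WT tumor. Whether the fold change of Ifng differed from those of the 10 genes was not tested. The difference between both effects on Ifng was 1.5 (adjusted p 0.137) and was not called.

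**Figure D5:**
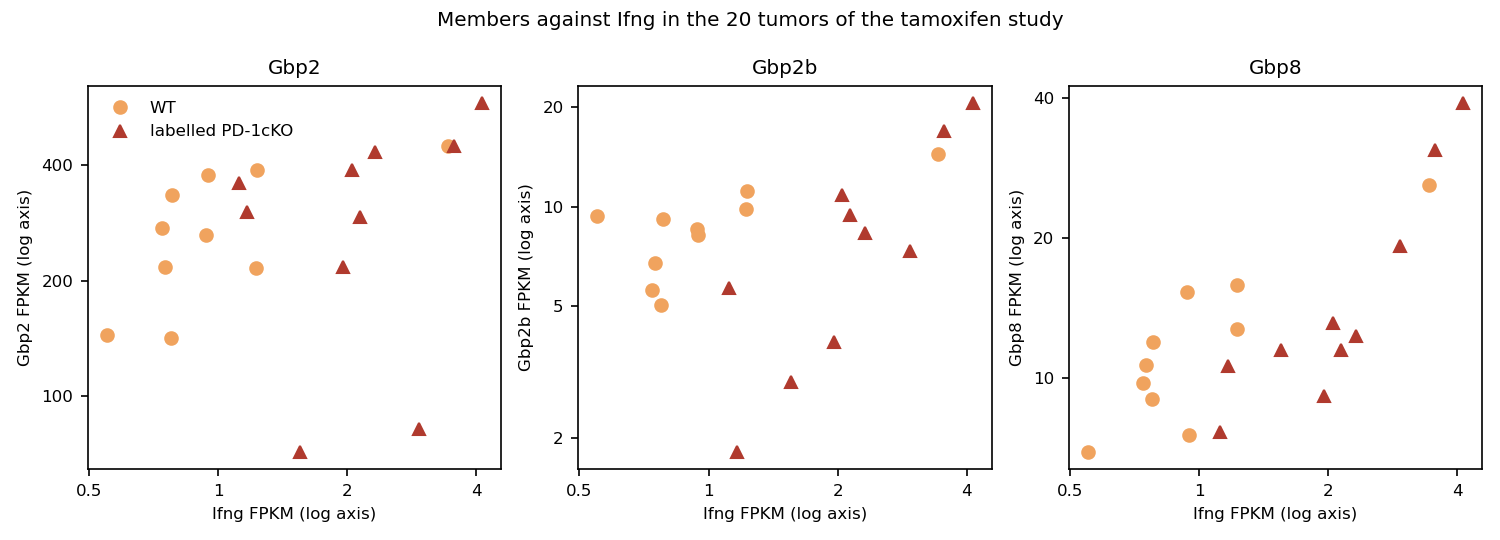
Level of Gbp2, Gbp2b and Gbp8 (vertical axes, FPKM, log axes) against that of Ifng (horizontal axes, FPKM, log axes) in the 10 WT tumors (circles) and the 10 tumors labelled PD-1cKO (triangles). Gbp8 and Gbp2b climb with Ifng under the label (Pearson r 0.9 and 0.83), while for Gbp2 replicates 4 and 8 lie far below the others (r 0.22).

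The relation with Ifng was computed for each gene across the 10 tumors labelled PD-1cKO. Pearson r of the log2 values was 0.9 for Gbp8 (permutation p 0.00028, adjusted p 0.00553) and 0.83 for Gbp2b (0.00391, adjusted 0.0112), with Spearman rho of 0.93 (permutation p 0.00029) and 0.81 (0.00708). Gbp10 (r 0.8), Gbp9 (0.69) and Gbp6 (0.66) also had an adjusted permutation p under the threshold of 0.05. Gbp2 had the lowest r of the 10, 0.22 (permutation p 0.547, adjusted 0.547). Of the 20 relations computed in both groups these were 5 of 10 under the label by Pearson r, and 3 of 10 by Spearman rho. The share of all genes that would pass was not computed. Without the 2 tumors farthest from the median of Ifng, r was 0.87 for Gbp2b (exact permutation p 0.00486, n = 8) and 0.8 for Gbp8 (0.0123), while Gbp10 (r 0.68, exact permutation p 0.0593), Gbp6 (0.59, 0.114) and Gbp9 (0.54, 0.171) did not pass over the 8 tumors that remained. Within the first run of identifiers, 7 tumors, r was 0.92 for Gbp2b (exact permutation p 0.00159) and 0.77 for Gbp8 (0.0567).

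Across the 10 WT tumors all 10 genes had an adjusted permutation p under 0.05, with Pearson r from 0.65 for Gbp2 to 0.92 for Gbp10. Here too the share of all genes was not computed, so the count is not shown to be particular to the family. By Spearman rho (0.65 to 0.88) 8 of 10 passed. Replicate 3 held 3.43 FPKM of Ifng against 0.55 to 1.23 in the others. Without the 2 tumors farthest from the median r was 0.33 to 0.79, and Gbp2b alone passed (exact permutation test, n = 8), and without replicate 3 none of the 10 had an adjusted p under 0.05, with r from 0.45 to 0.77 (median 0.7 against 0.82 with it). Within the second run of identifiers, 9 of these tumors, r was 0.64 to 0.92. Ifng is measured on the same libraries as the family, and both depend on the scaling: after median-of-ratios scaling 3 of 10 genes passed under the label and 8 of 10 in WT tumors.

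Over all 43 tumors, with the mean of each group subtracted, the 45 pairs of family members had a Pearson r between 0.47 and 0.95 (median 0.81). Gbp3, Gbp4, Gbp6 and Gbp7 had median r of 0.89 to 0.9 with the other members, and Gbp2b (0.65) and Gbp8 (0.72) the lowest. The lowest pair was Gbp2 with Gbp8. All pairs come from the same libraries and share their depth and make-up. The genes outside the family most alike to each member included other interferon-inducible GTPases. For Gbp2 they were Tgtp1 (r 0.97), Igtp (0.96) and Gm12250 (0.91), and for Gbp3 Olfr56 (0.97), Tgtp2 (0.96) and Tgtp1 (0.94). The span of the gene model Olfr56 contains Tgtp1 and Tgtp2 on the other strand, and those 2 are close copies, so their values cannot be told apart with certainty. Gbp4, Gbp6 and Gbp7 each had Iigp1 as the most alike (0.94 in each). Gbp5 was most like Irgm2 and Igtp (0.91 each), which overlap. Gbp9 was most like Parp14 and Eif2ak2 (0.92 each) and Mpdz (0.91). Gbp8 was most like Gm8995 (0.91), Gvin1 and Gm4951 (0.86 each).

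For Gbp2b the most alike genes were Klra2, a Ly49 receptor gene from a family of close copies (0.82), the chemokine Cxcl9 (0.8) and the Fc receptor gene Fcgr4 (0.73). Gbp10 was most like Cxcl9 (0.84), Ifi206 (0.81) and Iigp1 (0.81). These are descriptions over 43 tumors, with no test, and nothing about shared control follows from them.

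The wider pathway was read from lists, described by their counts. Among genes of the IFNγ axis, Ifng was called higher at day 15, as given above. Irf1 (0.62) and Socs1, a feedback inhibitor (0.89), passed the adjusted p (0.00349 and 0.0017) but were under 2-fold. The receptor chains Ifngr1 (0.48) and Ifngr2 (0.11), the kinases Jak1 (0.29) and Jak2 (0.14) and the phosphatase Ptpn2 (-0.47) were not called. Under the PD-1cKO label Ifng was called, and the values were 0.05 for Irf1, 0.48 for Socs1, 0.45 for Ifngr1, 0.21 for Ifngr2, -0.41 for Jak1, -0.5 for Jak2 and -0.8 for Ptpn2 (adjusted p 0.00608 in limma, under 2-fold). At day 11 none of these genes was called, where 0 of all 14556 genes were.

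Of 9 other interferon-inducible GTPases, 6 were called higher at day 15, with a median log2 fold change of 1.67 beside -0.04 for all genes, and under the PD-1cKO label 0 of 9, with a median of -0.26 beside -0.2. Tgtp1 had the highest value of the list at day 15 (2.08, standard error 0.31, adjusted p 0.0015 in limma) and the lowest under the label (-0.43, adjusted p 0.404). Irgm1 had the lowest at day 15 (1.44, adjusted p 0.00101) and Igtp the highest under the label (0.2, adjusted p 0.579). Of 15 other IFNγ targets 7 were called higher at day 15 (Cxcl9, Cxcl10, Cxcl11, Ciita, Nlrc5, Cd274 and Ido1) and none under the label, with medians of 0.83 and 0.06. Ido1, which breaks down tryptophan, had the highest value at day 15 (2.34, standard error 0.35, adjusted p 0.00154 in limma) and Psmb10, a subunit of the immunoproteasome, the lowest (0.33, adjusted p 0.228). Ciita, the regulator of MHC class II, had the highest value under the label (0.73, limma adjusted p 0.00145, under 2-fold, with 9 of 10 tumors above every WT tumor), and Cxcl9 the lowest (-0.3, adjusted p 0.457).

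Of 13 genes that type I interferon also induces, Ifit3 alone was called at day 15 (1.05, standard error 0.2, adjusted p 0.0042 in limma), with a median of 0.8, and 0 under the PD-1cKO label, with a median of -0.22. Ifit2 (1.14) and Isg15 (0.47) were the highest and lowest at day 15, and Oas2 (0.24) and Ifit3 (-0.88, limma adjusted p 0.0213) under the label. Of 9 inflammasome and cell-autonomous defence partners, Nlrp3 and Nlrc4 were called higher at day 15 and Il1b lower under the label (-1.16, standard error 0.32, adjusted p 0.00753 in limma). Nlrc4 (1.41) and Il1b (-0.07) were the highest and lowest of that list at day 15, and Pycard the highest under the label (0.7, adjusted p 0.0109). At day 11 no gene of these 4 lists was called, where 0 of all 14556 genes were. In the test of the difference between antibody and label none was either, where 15 of 16404 genes were called.

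Immune cell markers were read beside the family. All 5 T cell markers were called higher at day 15 (median log2 fold change 2.95) and all 5 under the PD-1cKO label (median 1.89), and none of them was listed at 0 throughout a tumor group. Their sum was 31.9 to 131 FPKM after 2 doses against 6.34 to 16 in isotype controls, and 20.3 to 88 under the label against 7.82 to 34.6 in WT tumors. Of 5 macrophage and monocyte markers 4 were called higher at day 15 and 1, Cd68, under the label. Their sum was 207 to 498 FPKM against 123 to 155, and 223 to 703 against 146 to 315. Of 3 NK cell markers Klre1 was called at day 15 and none of the 2 tested under the label, with sums of 2.3 to 7.41 against 0.842 to 1.6 and of 0.907 to 4.72 against 0.835 to 2.52 FPKM. Xcr1 and Clec9a, of 4 dendritic cell markers, were called at day 15 and none under the label. The part of these cells in the levels of the family was not tested.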

How the data were processed

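RNA was measured in 46 bulk samples of 8 groups taken from the sample labels. The authors made stranded total RNA libraries depleted of ribosomal RNA, aligned paired 50-base reads with the OSA aligner of Array Studio (version 10.0.1.118, at most 2 mismatches) to the Mouse.B38 genome with Ensembl release 86, and deposited FPKM for 48795 genes. FPKM were used as deposited. The depth behind them is unknown, no interval for counting error is given, and the count test of the authors (DESeq2 version 1.22.2) could not be repeated.

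The limma package (3.58.1, R 4.3.3) was run on log2(FPKM + 0.1) with a variance trend, over genes whose mean reached 0.5 FPKM in a group of the comparison, and adjusted over all genes tested with the Benjamini-Hochberg method. Fold changes on this scale understate changes of low genes. Calls needed an adjusted p below 0.01 together with a 2-fold difference, as in the study. The fit was tested on simulated data with independent noise, which leaves out correlated genes, differences in library make-up and identifier runs. Relations with Ifng were tested 2-sided with 100000 permutations, or exactly under 10 tumors. Shared stretches were counted over GENCODE M21 transcripts. All 10 members were named. Of the IFNγ axis all genes were named but 1, which is not reported here, and of other lists the genes with the highest and lowest log2 fold change at day 15 and under the PD-1cKO label. The likeness list holds, for each member, the 3 genes outside the family (at least 1 FPKM) with the highest r. Members, lists and tests were chosen with earlier results of these data known. Alternatives covered the pseudocount, filter, scaling, variance model, replicate block, identifier runs and tumors left out. The labels do not say that replicate numbers pair tumors, and the numbers were used only in the replicate block setting.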

Additional observations from a re-analysis of the deposited data

Results flagged for a closer look

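In 60 sets of 1 gene in 1 group of 5 or 10 tumors, 8 held a tumor far from the others, where chance gives about 1 in 20, or 3. These sets are not independent, since 2 tumors account for 7 of the 8. PD-1 Ab replicate 4 of day 15 was far below the other 4 tumors in Gbp3 (65.1 FPKM, the next at 116), Gbp4 (61 FPKM, the next at 98.4) and Gbp6 (53.4 FPKM, the next at 89.6). WT replicate 3 was far above the other 9 in Gbp4 (106 FPKM, the next at 51.1), Gbp5 (45.4 FPKM, the next at 28.8), Gbp8 (26 FPKM, the next at 15.9) and Gbp10 (8.83 FPKM, the next at 3.45). Isotype control replicate 4 of day 15 was far above the others in Gbp2b (14.8 FPKM, the next at 5.94). All were kept in the fits.

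The effect of PD-1 Ab at day 15 on Gbp2b exceeded that of the PD-1cKO label by 3.23 on the log2 scale, by a test of the difference itself (limma adjusted p 0.00674). Gbp2b averaged 43.9 and 6.36 FPKM in the antibody comparison, and 8.77 and 8.81 FPKM under the PD-1cKO label and in WT tumors.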

How the results depend on the processing

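The numbers count members called. The 8 members called at day 15 became 3 with the replicate block and 6 to 8 over the other settings, with 6 to 9 when 1 tumor was left out. Tumors with the same replicate number did not deviate together (median correlation -0.0215 at day 15, 0.0263 at day 11 and -4.68e-05 in the PD-1cKO study). Under the PD-1cKO label and at day 11 none was called in any setting. The single call for the difference between antibody and label was 0 with all groups in 1 fit, the replicate block, identifier runs as a covariate, or without the tumors over 60% short noncoding RNA, and 0 to 1 with 1 tumor left out. Against cultured cells, 7 to 10 were called. Members related to Ifng under the label numbered 3 with median-of-ratios scaling or rescaling to protein-coding genes against 5, and 3 to 7 with 1 tumor left out. In WT tumors they numbered 0 to 10, with 0 without replicate 3.

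Directions that reversed were of uncalled members. Under the label Gbp6 (-0.02) became 0.14 with median-of-ratios scaling, 0.16 with upper-quartile scaling, 0.11 rescaled to protein-coding genes, 0.26 without the tumors over 60% short noncoding RNA and 0.08 summed with its copies. With identifier runs Gbp2 became -0.83 and Gbp4 -0.02, and without those tumors Gbp7 became 0.15. With 1 tumor left out, Gbp2 ran from -0.1 to 0.23, Gbp6 from -0.21 to 0.13, and against baseline tumors Gbp2b from -0.34 to 0.9 and Gbp5 from -0.05 to 0.41. The causes were not tested. Depth is unknown, and small differences among 3 to 5 tumors were not detectable.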

Other observations

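Markers of other cells were read by the same limma fits. Of 3 neutrophil markers tested, S100a8 was called lower after 2 doses of PD-1 Ab and higher under the PD-1cKO label, where the 4 markers summed to 4.47 to 304 FPKM against 2.63 to 11.9 in WT tumors. Of 4 fibroblast markers, none was called at day 15 and Col1a1 and Col3a1 were called higher under the label. At day 15 Pecam1 of the endothelium, Plin1 of adipocytes and Acta1 of skeletal muscle were called higher, each 1 of 3 markers, and none of these lists had a call under the label. No B cell marker and none of 4 epithelial and carcinoma markers was called in either comparison, and B cell markers were too low to be tested under the label.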
